A study of Mus musculus with 2 samples.

Results

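The mevalonate pathway was followed through 8 of its enzyme genes, Mvd, Hmgcs1, Mvk, Pmvk, Idi1, Fdps, Fdft1 and Sqle, out of 20794 genes counted in a library of single mouse T cells. The genes were listed because Mvd had already stood out in these data, in the largest family of cells sharing a T cell receptor beta chain (TRB), and the question was whether the rest of the pathway was higher in that family too. The genes were thus chosen by measured values, the counts of Mvd by family, and the level of Mvd in that family is given as a description with no test. All 8 genes were in the matrix.

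The cells were GD2TIF cells, Cas9 transgenic mouse T cells that had been activated and infected with a retrovirus aimed at Bcor and Zc3h12a and carrying 14g2a, a chimeric antigen receptor for the ganglioside GD2. They had been transferred into immunocompetent C57BL/6 mice at 1000000 cells per mouse, and 2 months later 1000000 CD8+Thy1.1+ cells were sorted from spleen. The series holds 1 RNA library and 1 TCR library of these sorted cells and no untreated or unedited group. How many mice gave the cells, and of what age, the labels do not say, so a difference between TCR families cannot be told apart from a difference between mice.

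The mevalonate pathway turns acetyl-CoA into isoprenoid units, from which cells make cholesterol, the lipid anchors of prenylated proteins, dolichol and ubiquinone. Its genes are classic targets of the sterol-sensing transcription factor SREBP2 and as a rule are switched on and off together, and T cells draw on the pathway when they are activated and divide. Mvd encodes the decarboxylase that forms isopentenyl diphosphate, the basic isoprenoid unit.

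Of 10387 barcodes 10338 were kept, with a median of 1922 unique molecular identifiers (UMIs, each counting 1 captured transcript) per cell and 22280465 UMIs in all. The TCR library shared 4590 of its 5479 barcodes with the RNA library. A productive TRB was read alone in 3882 of these cells, and cells with the same TRB CDR3 nucleotide sequence were called a family. There were 432 families, 12 of them with at least 50 cells. The largest, family 1, had 882 cells and 1939417 UMIs, and the other single-TRB cells were 3000 with 6861187 UMIs. Median depth was 2060 UMIs in family 1 and 2070.5 in the other single-TRB cells, median mitochondrial share 3.67% and 3.40%, and median ribosomal protein share 15.0% and 17.5%. Markers of CD8 T cells, 11 of 11 in the matrix, summed to 16238 UMIs per 1000000 UMIs (CPM) in family 1 and 13450 CPM in the others. The receptor constant genes made up much of both sums. The higher sum in family 1 rested on Trbc1, at 8083 CPM there, against 2056 CPM in the others. Trbc2 went the other way, at 1253 CPM in family 1, against 4347 CPM in the others (0.288, 0.276 to 0.300). Cd8a was at 147 CPM in family 1, against 237 CPM in the others (ratio 0.620, 95% counting interval 0.544 to 0.703). Cd8b1 was at 278 CPM in family 1, against 443 CPM in the others (0.627, 0.571 to 0.687). Cd5 was at 119 CPM in family 1, against 216 CPM in the others (0.550, 0.477 to 0.633). Of the same list Cd2, Lck and Trac were also lower in family 1, at ratios of 0.754, 0.862 and 0.931. Higher there were Cd3d at 1.07 (1.02 to 1.12), Cd3e at 1.15 (1.10 to 1.19) and Cd3g at 1.24 (1.18 to 1.31). Markers of CD4 and regulatory T cells (4 of 4 in the matrix) summed to 29.9 CPM in family 1 and 30.2 CPM in the others. Cd4 and Foxp3 were at 0 in family 1, and Foxp3 was at 0 in the others too. Zbtb7b was at 25.3 CPM in family 1, against 21.7 CPM in the others, and Cd40lg at 4.64 CPM, against 7.58 CPM. Markers of B cells (7 of 7 in the matrix) summed to 477 CPM in family 1 and to 499 CPM in the others, mostly from Ighm at 417 CPM in family 1, against 466 CPM in the others. Pax5 was at 0 in both, while Ebf1 was at 46.9 CPM in family 1, against 19.1 CPM in the others (2.46, 1.86 to 3.24). Those of erythroid cells (5 of 5) summed to 12.9 CPM in family 1, with Hbb-bt and Alas2 at 0, and to 472 CPM in the others. The part of these marker differences in the results was not tested. Bcor was at 111 CPM in family 1, against 177 CPM in the other single-TRB cells, and Zc3h12a at 56.2 CPM in family 1, against 47.7 CPM in the others, which does not check the edits, since an edited gene can keep its transcript.

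The CDR3 nucleotide sequence of family 1 is shown beside those of the next 2 families because these sequences define the cells compared. TRB lies on chromosome 6, and family 1 used TRBV15 with TRBJ1-1, family 2 TRBV12-2+TRBV13-2 with TRBJ2-3, and family 3 TRBV17 with TRBJ1-1. With them is the CDR3 of the alpha chain (TRA) most often read in family 1, TRAV3D-3 with TRAJ21 on chromosome 14, which is used below to look inside the family. All are given from the deposited contigs, 5′ to 3′, in lower case throughout.
family 1: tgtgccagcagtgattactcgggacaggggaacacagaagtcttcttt
family 2: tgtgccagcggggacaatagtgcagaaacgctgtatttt
family 3: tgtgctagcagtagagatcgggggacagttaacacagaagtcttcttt
main TRA of family 1: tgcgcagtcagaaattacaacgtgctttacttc

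The promoters of Mvd and of Hmgcs1 are shown because the report turns on whether Mvd went with its pathway. The windows run from 250 bases before the annotated start of a gene to 50 after it, in RefSeq on GRCm38.p6, and windows were found for 5 of the 8 members. That of Mvd is chr8:122443373-122443672 on the minus strand, and that of Hmgcs1, the synthase that makes HMG-CoA at the head of the pathway, is chr13:119690101-119690400 on the plus strand. Capitals mark every match, on either strand, to 3 letter strings that do not overlap one another here. A match on the other strand reads as the reverse complement. The strings are TCACNCCAC, a core of the sterol regulatory element that SREBP factors bind, CCAAT, the box bound by NF-Y, and GGGCGG, the box bound by Sp1.
Mvd: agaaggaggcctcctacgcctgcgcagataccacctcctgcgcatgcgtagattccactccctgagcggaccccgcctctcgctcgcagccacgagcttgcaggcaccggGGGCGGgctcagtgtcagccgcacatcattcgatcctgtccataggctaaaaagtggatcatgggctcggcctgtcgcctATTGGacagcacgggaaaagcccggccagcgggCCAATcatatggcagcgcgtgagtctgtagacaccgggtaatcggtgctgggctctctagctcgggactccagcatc
Hmgcs1: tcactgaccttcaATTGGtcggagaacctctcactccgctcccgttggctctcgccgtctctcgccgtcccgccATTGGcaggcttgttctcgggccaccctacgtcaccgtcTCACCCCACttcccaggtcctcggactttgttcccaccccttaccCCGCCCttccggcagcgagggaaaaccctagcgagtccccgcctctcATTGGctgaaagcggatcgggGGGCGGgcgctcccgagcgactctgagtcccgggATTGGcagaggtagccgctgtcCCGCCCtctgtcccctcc

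Mvd held 0 sterol elements, 2 CCAAT boxes and 1 GGGCGG box in its window, and Hmgcs1 held 1, 4 and 3. Of 32851 promoter windows of this length, 1.24% held the sterol element, 37.4% a CCAAT box and 35.7% a GGGCGG box. The sterol element was not in the windows of Mvk, Pmvk or Idi1 either. A match is a run of letters and not a measured site, and its absence here says nothing on binding.

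Over all 10338 cells, Mvd was counted 1238 times, at 55.6 CPM (52.5 to 58.7). All intervals are 95% intervals for counting error only, from a single library with no replicate. A UMI of Mvd was found in 736 cells (7.12%, 6.63 to 7.63), and no cell had more than 9. Family 1 gave 622 of the 1238 UMIs of Mvd (50.2%) but 8.70% of all UMIs.

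The other members had fewer UMIs. Upstream of Mvd, Hmgcs1 stood at 14.1 CPM (12.6 to 15.7), Mvk, which encodes mevalonate kinase, at 4.98 CPM (4.10 to 6.00), and Pmvk, which encodes phosphomevalonate kinase, at 12.1 CPM (10.7 to 13.7). Downstream, the isomerase gene Idi1 stood at 1.39 CPM (0.945 to 1.97) and Fdps, which encodes farnesyl diphosphate synthase, at 2.51 CPM (1.90 to 3.26). On the branch to sterols, the squalene synthase gene Fdft1 stood at 37.9 CPM (35.4 to 40.5) and the squalene epoxidase gene Sqle at 4.40 CPM (3.57 to 5.36). Counts over all cells ran from 31 UMIs for Idi1 to 844 for Fdft1, so the precision differs widely between members. Fdft1 overlaps Ctsb in the annotation, and the sources used here do not say whether the counting used strand. Mvd overlaps Gm51557 and Fdps overlaps Gm22935, neither of which is in the matrix.

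Mvd was at 321 CPM (296 to 347) in family 1, against 11.8 CPM (9.38 to 14.7) in the other single-TRB cells, from 622 and 81 UMIs. The ratio was 27.2-fold (21.5 to 34.7). Among the 10681 genes with at least 20 UMIs over both sets of cells, 11 had a larger ratio, and each of those rested on at most 149 UMIs, against 703 for Mvd. The gene was found with a UMI in 338 of 882 cells of family 1 (38.3%, 35.1 to 41.6) and in 68 of 3000 other cells (2.27%, 1.76 to 2.86). After thinning each cell to 1000 UMIs the shares were 23.4% of 856 cells of family 1 and 0.867% of 2885 others, with 26 and 115 shallower cells left out. No set of cells here is known to lack Mvd, so the part of free RNA in the share of the other cells was not tested. In family 1, 73 cells (8.28%) had 3 or more UMIs of Mvd, against 2 (0.0667%) of the others.

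The rest of the pathway did not stand apart in that way. Summed over the 7 other members, family 1 had 162 UMIs at 83.5 CPM (71.2 to 97.4) and the other cells 512 UMIs at 74.6 CPM (68.3 to 81.4). That is a ratio of 1.12 (0.932 to 1.34), and of 1.07 (0.826 to 1.38) without Fdft1, which gave 81 of the 162 UMIs in family 1. A UMI of Fdft1 was found in 8.28% of cells of family 1 (6.54 to 10.3) and in 6.83% of the others (5.96 to 7.80). For every UMI of the 7 other members there were 3.84 UMIs of Mvd in family 1 and 0.158 in the other cells.

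**Figure D1:**
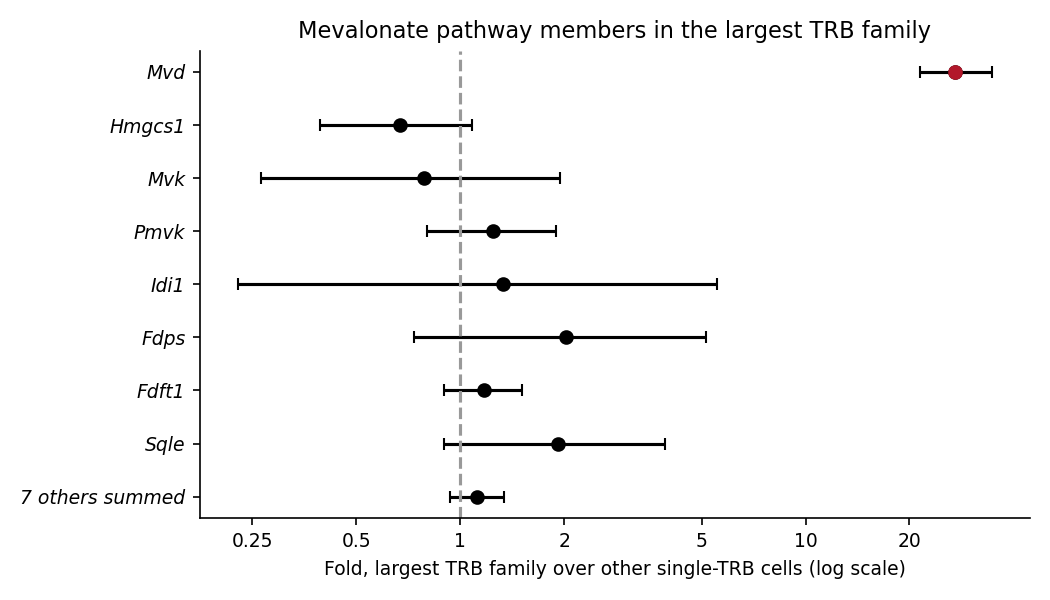
Ratio of CPM in family 1 to that in the other single-TRB cells for each of the 8 members and for the sum of the 7 others (log axis; points are ratios, bars exact 95% intervals for counting error). Mvd lies at 27.2-fold, while every other interval reaches across 1.

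Taken by their place in the pathway, the enzymes before Mvd lay on both sides of equality. Hmgcs1 was at 10.3 CPM in family 1, against 15.4 CPM in the others, a ratio of 0.668 (0.392 to 1.08). Mvk was at 3.09 CPM in family 1, against 3.94 CPM in the others, a ratio of 0.786 (0.265 to 1.94). Pmvk, the kinase that acts just before Mvd, was at 15.98 CPM in family 1, against 12.8 CPM in the others, a ratio of 1.25 (0.800 to 1.90). All 3 intervals hold a ratio of 1.

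The enzymes after Mvd had ratios above 1, each with an interval that also holds 1. Idi1, which interconverts the 2 isoprenoid building blocks, had 3 UMIs in family 1 and 8 in the others, a ratio of 1.33 (0.227 to 5.53). Fdps was at 4.12 CPM in family 1, against 2.04 CPM in the others, a ratio of 2.02 (0.735 to 5.16) from 8 and 14 UMIs. Fdft1 was at 41.8 CPM in family 1, against 35.7 CPM in the others, a ratio of 1.1696 (0.898 to 1.51). Sqle was at 6.70 CPM in family 1, against 3.498 CPM in the others, a ratio of 1.92 (0.896 to 3.92) from 13 and 24 UMIs. The highest upper bound among the 7 other members was 5.53, below the lower bound of 21.5 for Mvd. For each member, a difference within its own interval could not be told from none at this depth. These intervals differ widely, with upper bounds of 1.51 for Fdft1 and 5.53 for Idi1.

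Counted by a ratio of at least 1.5, 3 of the 7 members with 20 UMIs or more lay higher in family 1, namely Mvd, Fdps and Sqle, and 0 lay lower by as much. Idi1 was below 20 UMIs and was not counted. Over all 10681 genes 10.0% lay higher by this rule and 9.40% lower. The members' median ratio was 1.25 and that of all genes 1.02. Fdps and Sqle are among the members with fewest UMIs, and the members were chosen with this contrast known, so nothing is read from the count.

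**Figure D2:**
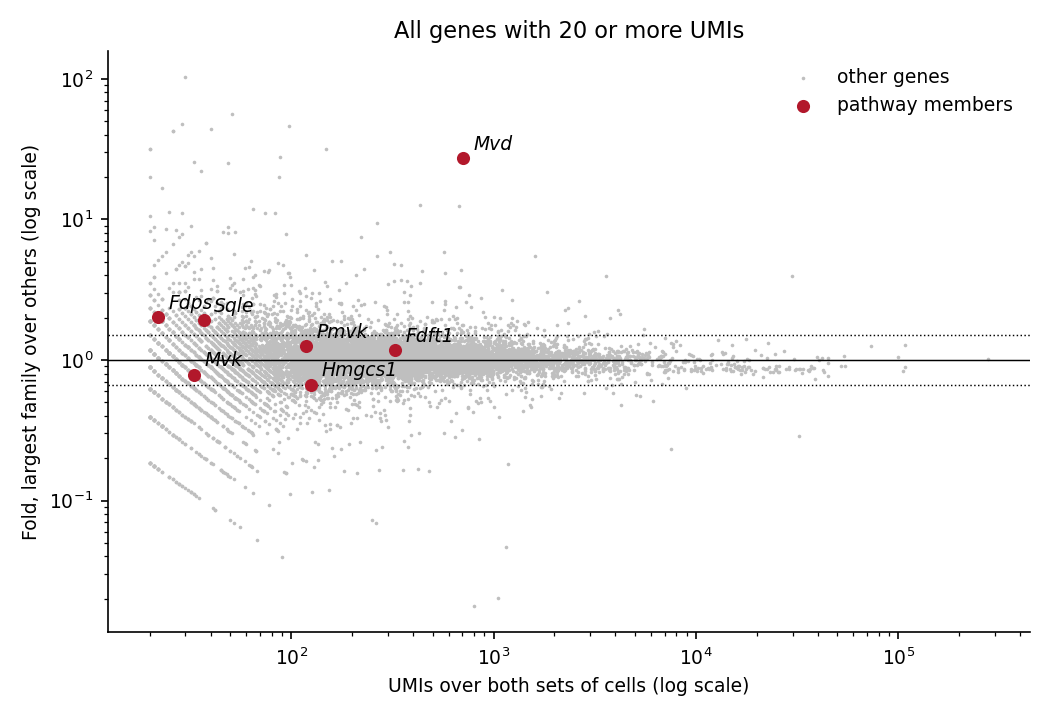
Ratio of CPM in family 1 to that in the other single-TRB cells against the UMIs behind it, for genes with at least 20 UMIs (both axes log, dotted lines at 1.5-fold either way, 22 genes with no UMI on 1 side not drawn). No gene with more than 149 UMIs lies above Mvd, while the other 6 members drawn lie within the cloud.

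Family by family, Mvd separated family 1 from each of the other 11. It was at 321 CPM in family 1, against 0, 8.33 and 16.03 CPM as the lowest, median and highest of the other 11 families. The highest of these was family 3, with 8 UMIs in 200 cells, and family 1 was 20.01-fold above it (10.1 to 46.6). Family 2 followed at 14.7 CPM (9.42 to 21.9) from 24 UMIs in 600 cells. All 11 intervals lay below that of family 1, and all 55 pairs among the other families had intervals that overlap, so no order is read below family 1.

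Mvd was not seen in 2 of those families. Family 10, TRBV12-1 with TRBJ2-4, had 0 UMIs in 77 cells, where 3 UMIs would be 13.4 CPM and the exact interval reaches 16.5 CPM. Family 12, TRBV13-3 with TRBJ2-7, had 0 UMIs in 50 cells, where 3 UMIs would be 32.7 CPM and the exact interval reaches 40.2 CPM. In the 11 families the share of cells with a UMI of Mvd was at most 4%, and no cell had more than 3. At the size limit of 50 cells, family 12 lay just inside, and the next family, TRBV3 with TRBJ2-1, just outside with 40 cells and 2 UMIs of Mvd.

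The sum of the 7 other members placed family 1 at position 5 of 12. It was 83.5 CPM in family 1, against 19.97, 66.7 and 152 CPM as the lowest, median and highest of the other 11. The highest, family 12, rested on 14 UMIs (83.4 to 256) and the lowest, family 11 (TRBV12-2 with TRBJ1-1), on 3 (4.12 to 58.4). Family 3 had 118 CPM (90.0 to 152) from 59 UMIs. The interval of family 11 alone lay below that of family 1, and 0 families lay above it.

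**Figure D3:**
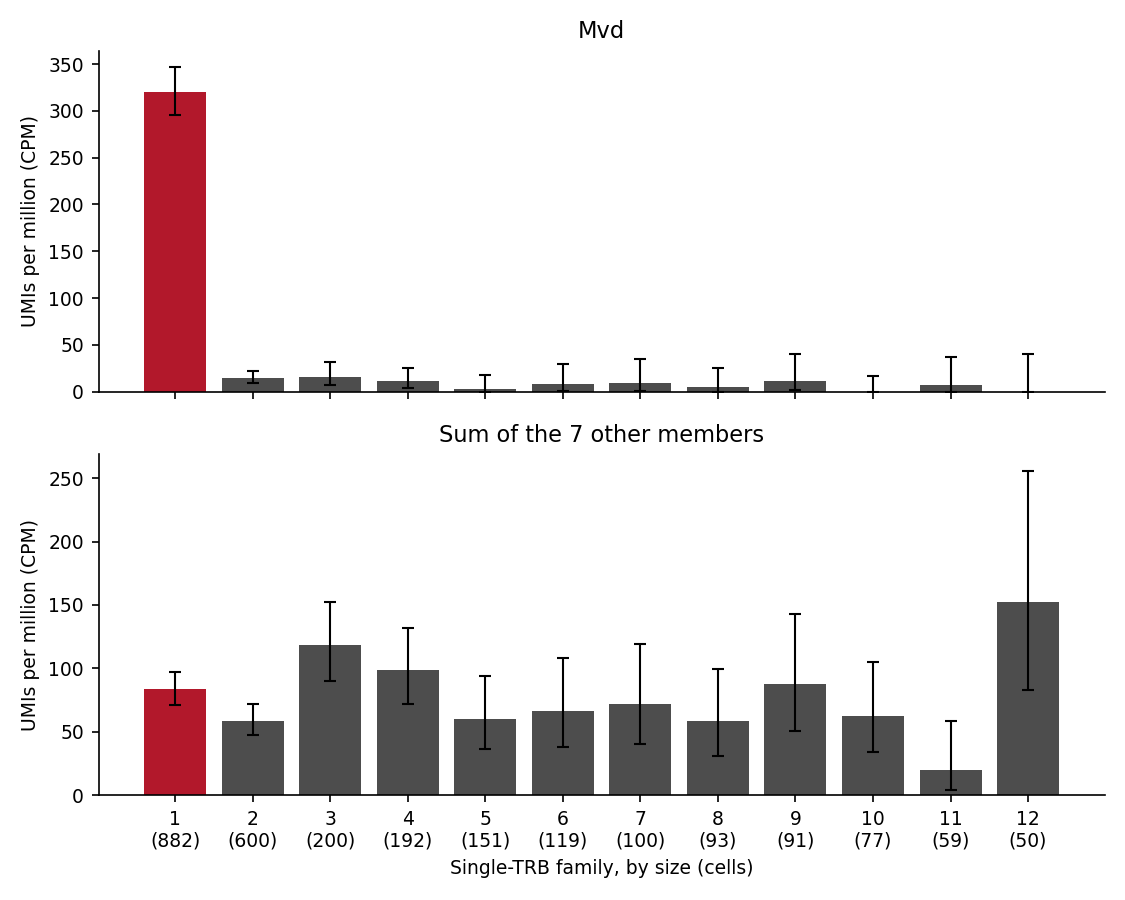
CPM of Mvd (top) and of the 7 other members summed (bottom) in the 12 single-TRB families of at least 50 cells, numbered by size with cells in brackets (bars are CPM, whiskers exact 95% Poisson intervals, family 1 in red). Mvd is at 321 CPM in family 1 and at most 16.03 CPM elsewhere, while the sum of the others runs from 19.97 to 152 CPM with family 1 at 83.5.

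Single members varied between families without singling out family 1. Hmgcs1 was at 10.3 CPM in family 1, position 9 of 12, against 0, 13.5 and 32.7 CPM as the lowest, median and highest of the other 11. Pmvk was at 15.98 CPM in family 1, position 6, against 0, 13.1 and 34.1 CPM in the others, the highest being the 17 UMIs of family 3. Fdft1, with the most counts of the 7, was at 41.8 CPM in family 1, position 3, against 13.3, 38.5 and 76.2 CPM in the others. Mvk stood at position 7, and Idi1, Fdps and Sqle at position 3 each. These last 4 were at 0 UMIs in 4, 8, 8 and 6 of the other 11 families. For Sqle 1 family, family 2, had an interval below that of family 1, and for Hmgcs1, Mvk, Pmvk, Idi1, Fdps and Fdft1 the interval of family 1 overlapped all 11 others.

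Within family 1 the level of Mvd differed with the TRA read in the same cell. The main TRA, whose CDR3 is printed with the family sequences, was read in 633 of the 882 cells (71.8%) and in 162 of the 3000 other single-TRB cells (5.40%). Mvd was at 393 CPM (357 to 431) in the 517 cells with that TRA alone, at 332 CPM (269 to 405) in the 116 with that TRA and another, and at 322 CPM (204 to 483) in the 44 with no TRA. It was at 127 CPM (96.0 to 165) in the 205 cells of family 1 that had only other TRA chains. These 205 cells had a median of 11 UMIs behind the TRB contig, against 18 where the main TRA stood alone. The 7 other members summed to 81.9, 75.3, 70.0 and 95.3 CPM in these 4 sets of cells, with intervals that all overlap.

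The TRA most often read in those 205 cells were chains of other families. A TRAV13N-1/TRAJ15 chain was in 45 of them, with Mvd at 218 CPM (137 to 330), and in 412 other single-TRB cells at 12.0 CPM (6.21 to 21.0), 175 of which belong to family 4 (TRBV29 with TRBJ1-1). A TRAV16D-DV11/TRAJ57 chain, otherwise read mostly in family 2, was in 31 of them with Mvd at 122 CPM (52.6 to 240), and a TRAV6-7-DV9/TRAJ26 chain, otherwise mostly in family 3, was in 28 at 66.2 CPM (18.0 to 169). Whether these barcodes hold 2 cells or stray receptor transcripts was not tested. With family 1 restricted to cells that carry its main TRA, and the others to cells without it, Mvd was 34.9-fold higher, in a comparison added after seeing the data, and the 7 other members summed to a ratio of 1.08.

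Cells in which no TRB was read were part of the level over all cells but belonged to no family. Among them, Mvd was at 114 CPM (41.9 to 248) in the 30 cells with the main TRA of family 1, from 6 UMIs, against 10.3 CPM (4.46 to 20.4) in the 430 cells with another TRA, from 8 UMIs. The ratio was 11.0 (3.16 to 36.3), with no replicate. The 7 other members gave 2 and 61 UMIs, a ratio of 0.483 (0.0572 to 1.82). In the 162 cells with that TRA but the TRB of another family Mvd was at 25.5 CPM (12.7 to 45.7), against 10.9 CPM (8.49 to 13.8) in the 2838 single-TRB cells of other families without it. The 5752 cells with neither chain had Mvd at 42.3 CPM (38.7 to 46.1) and gave 41.0% of all its UMIs. They held 12019032 of the 22280465 UMIs of all genes, so their part of the Mvd UMIs was below their part of all UMIs. Their 42.3 CPM was nonetheless above the 10.3 CPM of the cells with no TRB and another TRA. It was also above the 10.9 CPM of the single-TRB cells of other families without the main TRA. Which receptors the cells with neither chain carry was not tested.

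**Figure D4:**
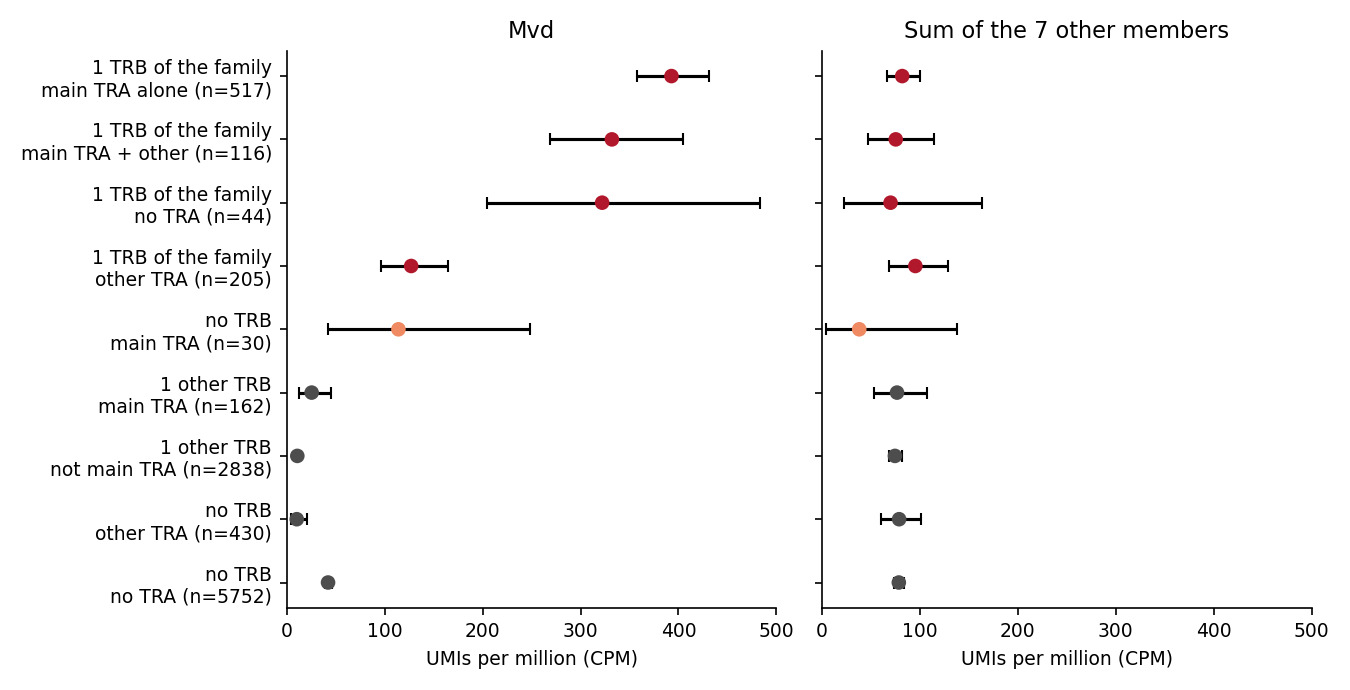
CPM of Mvd (left) and of the 7 other members summed (right) by the receptor chains read in a cell (points with exact 95% Poisson intervals; red, cells with the TRB of family 1; orange, cells with its main TRA and no TRB; grey, all others; n is cells). Mvd ranges from 10.3 to 393 CPM between these sets, while the other members range from 38.04 to 95.3 CPM.

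The difference held at each depth of cell. In cells under 1500 UMIs Mvd was at 393 CPM in family 1, against 11.2 CPM in the other single-TRB cells, a ratio of 35.0 (16.9 to 84.0). From 1500 to under 3000 UMIs it was at 332 CPM in family 1, against 11.3 CPM in the others, 29.3-fold (21.5 to 40.7). At 3000 UMIs or more it was at 258 CPM in family 1, against 12.8 CPM in the others, 20.1-fold (13.2 to 31.6). The 7 other members had ratios of 0.745 (0.377 to 1.36), 1.30 (1.04 to 1.61) and 0.818 (0.523 to 1.24) in these 3 ranges, so the interval of the middle range lay just above 1. With mitochondrial, ribosomal and receptor genes, Malat1 and Gm42418 left out of the totals, Mvd was 26.6-fold higher in family 1 and the 7 others summed to a ratio of 1.10.

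The steps around the 8 members were read the same way from lists of pathway genes. By the 1.5-fold rule 10.0% of all 10681 genes lay higher and 9.40% lower. Nothing is read from the counts past 1.5-fold in these lists, or among the neighbours of Mvd. Before them, Acat2, which makes acetoacetyl-CoA, was at 18.6 CPM in family 1, against 17.8 CPM in the others (ratio 1.04, 0.699 to 1.52). Of 10 genes of sterol synthesis after squalene epoxide 9 passed 20 UMIs. By the 1.5-fold rule 0 of these were higher and 1 was lower, Hsd17b7 at 0.635 (0.240 to 1.44), and the median ratio was 0.948. Dhcr7, the last step to cholesterol, was at 29.9 CPM in family 1, against 19.97 CPM in the others (1.498, 1.08 to 2.05), and Ebp, a sterol isomerase, at 80.4 CPM in family 1, against 60.2 CPM in the others (1.34, 1.10 to 1.61). Summed over the 10 genes the ratio was 1.14 (1.01 to 1.28).

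The branch to prenylated proteins, dolichol and ubiquinone had 11 of 11 genes past 20 UMIs. None lay beyond 1.5-fold either way, against 10.0% of all genes higher and 9.40% lower, and the median ratio was 1.06. Its geranylgeranyl diphosphate synthase gene Ggps1 was at 55.7 CPM in family 1, against 50.9 CPM in the others (1.09, 0.874 to 1.36). The farnesyltransferase subunit gene Fnta was at 47.4 CPM in family 1, against 37.0 CPM in the others (1.28, 0.998 to 1.63).

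Regulators of the pathway lay on both sides of equality. Of 11 genes of sterol sensing and uptake 9 passed 20 UMIs, with 0 higher by 1.5-fold, 1 lower and a median ratio of 1.21. Over all genes 10.0% lay higher and 9.40% lower. Srebf1, which encodes SREBP1, was at 32.5 CPM in family 1, against 22.7 CPM in the others (1.43, 1.05 to 1.93). Srebf2, which encodes SREBP2, was at 58.8 CPM in family 1, against 48.7 CPM in the others (1.21, 0.968 to 1.498). Insig1, which holds SREBP proteins in the endoplasmic reticulum and is itself a target, was at 12.9 CPM in family 1, against 11.7 CPM in the others (1.11, 0.676 to 1.75). Mylip, a ubiquitin ligase gene that sterol-sensing LXR receptors induce, was the lower gene, at 15.0 CPM in family 1, against 35.9 CPM in the others (0.417, 0.274 to 0.614). Among the 5 genes of sterol efflux, Abca1, a cholesterol exporter that LXR receptors also induce, had 1 UMI in family 1 and 30 in the others (0.118, 0.00289 to 0.709). Abcg1, another exporter under LXR control, was at 21.1 CPM in family 1, against 23.0 CPM in the others (0.918, 0.635 to 1.30).

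The genes next to Mvd on chromosome 8 were set beside it. Mvd spans chr8:122433596-122443422 on the minus strand in GRCm38.p6, and the 5 counted genes on either side were taken in the order of the RefSeq table. Of these 10 genes 8 passed 20 UMIs, with 1 higher by 1.5-fold, 0 lower and a median ratio of 0.904. The shares over all genes were 10.0% higher and 9.40% lower. Cyba, a subunit of the NADPH oxidase whose gene lies 656 bases beyond the 3′ end of Mvd, was at 413 CPM in family 1, against 313 CPM in the others (1.32, 1.21 to 1.43). Snai3, a zinc finger gene 10.8 kb beyond the start of Mvd, had 11 UMIs in family 1 and 19 in the others (2.05, 0.881 to 4.53). Rnf166, 22.7 kb away on the same side, was at 111.9 CPM in family 1, against 111.9 CPM in the others (0.9996, 0.856 to 1.16), and Zc3h18, 16.2 kb away on the other side, at 43.8 CPM in family 1, against 51.2 CPM in the others (0.857, 0.668 to 1.09). Of the 24 annotated genes in the span 13 were not in the matrix.

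**Figure D5:**
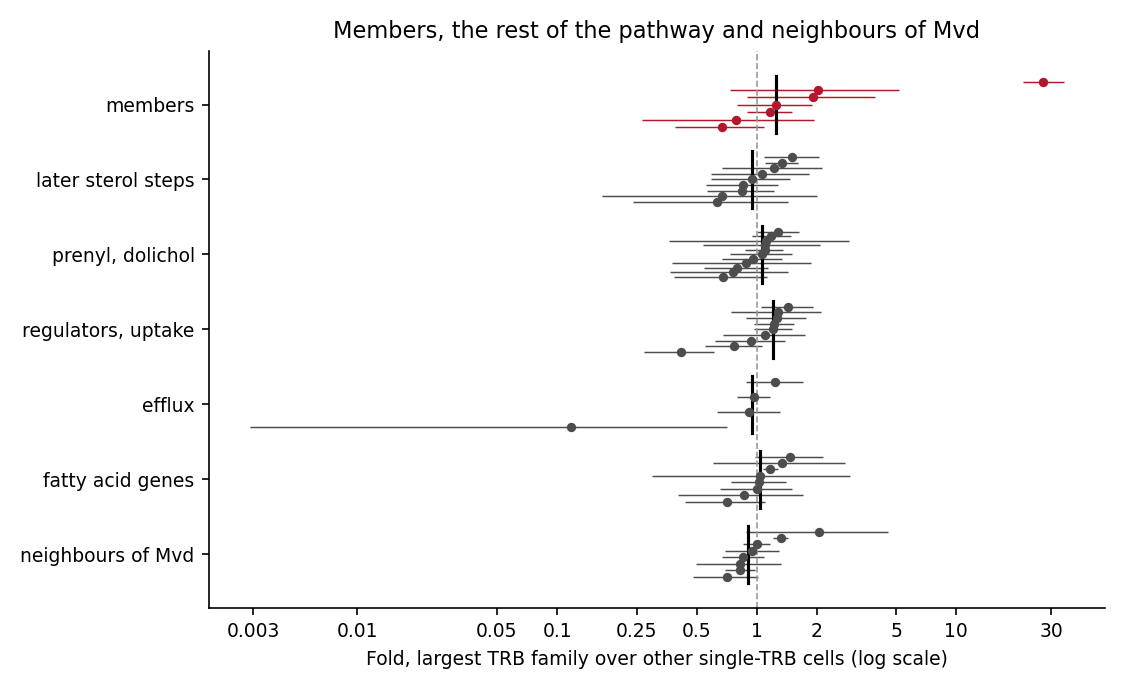
Ratio of CPM in family 1 to that in the other single-TRB cells for genes with at least 20 UMIs, by list (log axis; points are genes with exact 95% intervals, vertical bars are list medians, members in red). Mvd at 27.2-fold is apart from every other gene drawn, whose ratios run from 0.118 to 2.05.

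The levels of all genes over the 12 families were then set against those of Mvd. Likeness was Pearson's r of log2(CPM + 10), among 5816 genes with at least 200 UMIs in single-TRB cells, a minimum that only Fdft1 of the 7 other members reached. It is a description, since the families share a library and differ in depth, and it rests in part on the level of Mvd in family 1 that chose the members. Leading were Esm1, which encodes a secreted proteoglycan (r = 0.833 over 12 families, 0.571 over the 11 without family 1), and the transcription factor gene Osr2 (0.807 and 0.635). They were followed by Manf, which encodes a protein of the endoplasmic reticulum (0.786 and 0.402), Cybb, a subunit of the NADPH oxidase (0.752 and 0.744), and Slain1, which encodes a microtubule-associated protein (0.75 and 0.361). Esm1 was at 174 CPM in family 1, against 0, 13.3 and 46.1 CPM as the lowest, median and highest of the other 11, and Osr2 at 271 CPM against 0, 11.0 and 144 CPM. Fdft1 had r = 0.06 over the 12 families and -0.20 without family 1. Of the members under the minimum, Sqle had 0.36 over the 12 families and 0.45 without family 1, Pmvk 0.25 and 0.39, and Mvk -0.24 and -0.52. Without family 1 r was lower for Esm1, Osr2, Manf, Cybb and Slain1, and by least for Cybb.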

How the data were processed

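Single T cells from 1 RNA library and 1 TCR library were analysed. The deposited values are UMI counts without normalization, given for each gene and barcode in the RNA matrix and for each receptor contig in the TCR table, where the authors called the CDR3 sequences. GRCm38 is the build in the submitters' processing notes, which list STAR 2.6.1a, cutadapt 1.17 and featureCounts 2.0.1 without saying what each did. No source used here says how contigs were assembled.

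Barcodes under 200 genes or at 20% mitochondrial UMIs or more were dropped (49). Libraries were joined on the barcode, and 4586 kept cells had a contig. Families are cells with exactly 1 productive TRB, grouped by CDR3 nucleotide sequence. No doublet caller was run, and cells with 2 TRB stayed out of the families. CPM is a gene's summed UMIs per 1000000 UMIs. Intervals are exact (Poisson, conditional for ratios, Clopper-Pearson for shares) at 95% and cover counting error only. A count of 0 was set against 3 UMIs per family. With 1 library, cells are not replicates, so no test was run.

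Named genes are the 8 members, pathway lists, the 5 counted neighbours of Mvd per side and the 5 genes most like it. Members and lists were chosen with earlier results of these data known. Alternatives changed the denominator, depth, cell filter, family definition and comparison cells. The fold and interval code was tested on simulated data. The work used scipy 1.17.1, pandas 2.3.3, numpy 2.4.6 and matplotlib 3.10.9 under python 3.11.15. Some results on single genes of these lists are not reported here.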

Additional observations from a re-analysis of the deposited data

How the results depend on the processing

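Mvd was above the comparison cells in family 1 under all 12 alternatives, from 10.6-fold to 41.5-fold. It was 41.5-fold with the other families weighted equally, 35.0-fold after thinning to 1000 UMIs, 12.6-fold for the largest deposited clonotype against other clonotypes, and 10.6-fold against all other cells kept. In the last 2 the comparison cells by construction hold cells of family 1's receptor or with no TRB read. Both alternatives on the main TRA were chosen after seeing the data and gave 34.9-fold and, with that TRA alone, 36.1-fold. The sum of the 7 others stayed between 1.05 and 1.21, and all 81 alternative values of the 7 single members stayed within that member's own interval. Idi1 had no value where 1 side had no UMI. Genes beyond 1.5-fold either way were 19.4%, but 7.32% at 200 UMIs, 46.9% at 1 UMI and, at the usual 20 UMIs, 8.14% at 2-fold. Family 1 led for Mvd with a minimum size of 30 cells too. With a minimum of 100 cells its lead was given in advance, since those families are among the ones of 50 or more. Family 1 was chosen for its Mvd, so its lead and its Mvd ratios under the alternatives are a description. No paired analysis was possible because each library stands alone. Depth limits Idi1, Fdps, Mvk and Sqle most, with 11 to 37 UMIs in single-TRB cells.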

Other observations

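Fatty acid genes that SREBP factors also drive stayed within 1.5-fold of the other cells in family 1. Of 9 such genes 8 were in the matrix and passed 20 UMIs, with 0 beyond 1.5-fold either way and a median ratio of 1.03. Over all genes 10.0% lay higher by this rule and 9.40% lower. Summed over the 8 genes the ratio was 1.14 (1.05 to 1.23), and Acly gave 669 of the 844 UMIs in family 1. Acly, which makes cytosolic acetyl-CoA, was at 345 CPM in family 1, against 295 CPM in the other single-TRB cells (1.1699, 1.07 to 1.28), and the fatty acid synthase gene Fasn at 15.98 CPM in family 1, against 15.9 CPM in the others (1.01, 0.652 to 1.51).

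Mvd was also low in the 7 families of 31 to 40 cells. It had 0 UMIs in 2 of them and at most 3 in the others. The highest level was 33.5 CPM (6.92 to 98.0) in the 37 cells of a TRBV13-3 family with TRBJ1-1, where all 3 UMIs came from 1 cell. Among cells with 2 or more TRB, Mvd was at 48.6 CPM (19.5 to 100.1) in the 48 cells with 1 TRB of family 1, against 12.3 CPM (4.50 to 26.7) in the 196 with none of it, from 7 and 6 UMIs.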
